A study of Homo sapiens with 6 samples.

Results

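The squamous differentiation and cornified envelope genes described here are 43 genes chosen by name for what they do in stratified squamous epithelium. The choice was made with earlier results of these data known, so counts of these genes called are a description and not independent evidence. Each gene was found once among the 58735 genes of the deposited table. The 43 comprise the involucrin gene with 6 genes of the small proline-rich (SPRR) family, 8 genes of other envelope proteins, 5 of cross-linking and citrullination enzymes and 3 of corneodesmosome proteins. The others are 7 kallikrein genes, 5 of protease inhibitors, 2 of transcriptional regulators and 6 of membrane, lipid and cytokine-related proteins. Keratin and S100 genes were left out of the choice.

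Their transcripts were measured by RNA sequencing in KYSE30, an established human cell line from an oesophageal squamous cell carcinoma. The cells had been transfected at 100 nM with si-RAB23-1 or si-RAB23-9, which are siRNAs against RAB23, or with the control siRNA si-NC. Each group has 2 libraries, which the design calls biological replicates without saying that they came from separate cultures, so p-values reflect no more than how these libraries vary, and that variation may be technical. All groups are the same line transfected with the same lipid reagent, and the sources used here give neither the siRNA sequences nor the time to harvest.

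In stratified squamous epithelium, cells that leave the basal layer build a cornified envelope under their membrane. Periplakin and envoplakin form a scaffold, to which transglutaminases cross-link involucrin and small proline-rich proteins, while peptidylarginine deiminases turn arginine in structural proteins into citrulline. Kallikrein proteases cut the corneodesmosomes that hold the outermost cells together, and inhibitors such as cystatins and SLPI restrain proteases there. The lining of the oesophagus is stratified and in humans normally does not cornify.

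The libraries held between 17211025 and 24178125 reads, recovered as whole multiples from the FPKM values (fragments per kilobase of gene, scaled by a total per library). That total was 0.963 and 0.976 of the recovered reads with si-RAB23-1. It was 0.985 and 0.988 of them with si-RAB23-9 and 0.987 and 0.990 with si-NC, and its origin is not known. RAB23 averaged 1.06 FPKM with si-RAB23-1 and 1.23 with si-RAB23-9, against 3.30 with si-NC. These were log2 differences of -1.06 and -0.95 (limma adjusted p = 0.00314 and 0.00392). Within groups, libraries correlated at a Spearman rho of 0.983 to 0.985 over genes, and across groups at 0.969 to 0.979. Of 8 markers of squamous epithelium, 6 had at least 1 FPKM in every library, while KRT5 reached at most 0.272 FPKM and PKP1 at most 0.0454. The 8 summed to 402.4 to 416.5 FPKM with si-RAB23-1, 353.3 to 359.6 with si-RAB23-9 and 361.9 to 375.5 with si-NC. Most of this sum was SFN, which averaged 296.6, 262.9 and 300.7 FPKM in these groups. Of 6 leukocyte and 6 simple columnar markers none reached 1 FPKM. Of 6 fibroblast markers COL1A1 alone did in every library, with a highest value of 3.77 FPKM, and COL1A2, DCN and LUM were at 0. Of 6 endothelial markers CDH5 alone did, with a highest value of 3.65 FPKM, and KDR was at 0. The endothelial markers summed to 1.71 to 2.25 FPKM with si-RAB23-1 and 2.88 to 3.39 with si-RAB23-9, against 3.92 to 3.97 with si-NC, and their part in the results was not tested.

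In KYSE30 cells about as many of these genes passed the filter for testing as fell short of it. Of the 43 genes, 22 reached 1 FPKM in 2 or more libraries and entered the tests, and 12 had a mean of at least 10 FPKM over the 6 libraries. The deiminase gene PADI3 stood far above the rest and made up 57.8% of the summed FPKM of the 43 genes. It was followed by LYPD3, the gene of a membrane-anchored surface protein, and by PPL, the gene of periplakin. The 12 also held SCEL (sciellin), EVPL (envoplakin), IVL (involucrin), SPRR1A, KLK5, KLK6, CSTB, KLF4 and EMP1.

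The 21 genes that were not tested included the terminal markers of the outer layers. CRNN, the gene of cornulin and a marker of differentiated oesophageal cells, and PI3, the gene of the inhibitor elafin, were at 0 in all 6 libraries. All 3 corneodesmosome genes (CDSN, DSG1 and DSC1), all 3 transglutaminase genes (TGM1, TGM3 and TGM5) and 5 of 7 kallikrein genes (KLK7, KLK8, KLK10, KLK11 and KLK13) stayed under 1 FPKM. So did SPRR2D, SPRR2E, SBSN, KRTDAP, CSTA, SERPINB13, MAL and RHCG. The highest value among the 21 was 0.997 FPKM, for TGM5 in si-RAB23-1 replicate 1. Not all of the 21 were near 0: TGM1 and TGM5 averaged 0.805 and 0.816 FPKM, above the 0.649 of SPRR2A, which was tested. Of the 43 genes, 17 had a mean under 10 reads per library, and of these SPRR2A alone was tested.

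**Figure D1:**
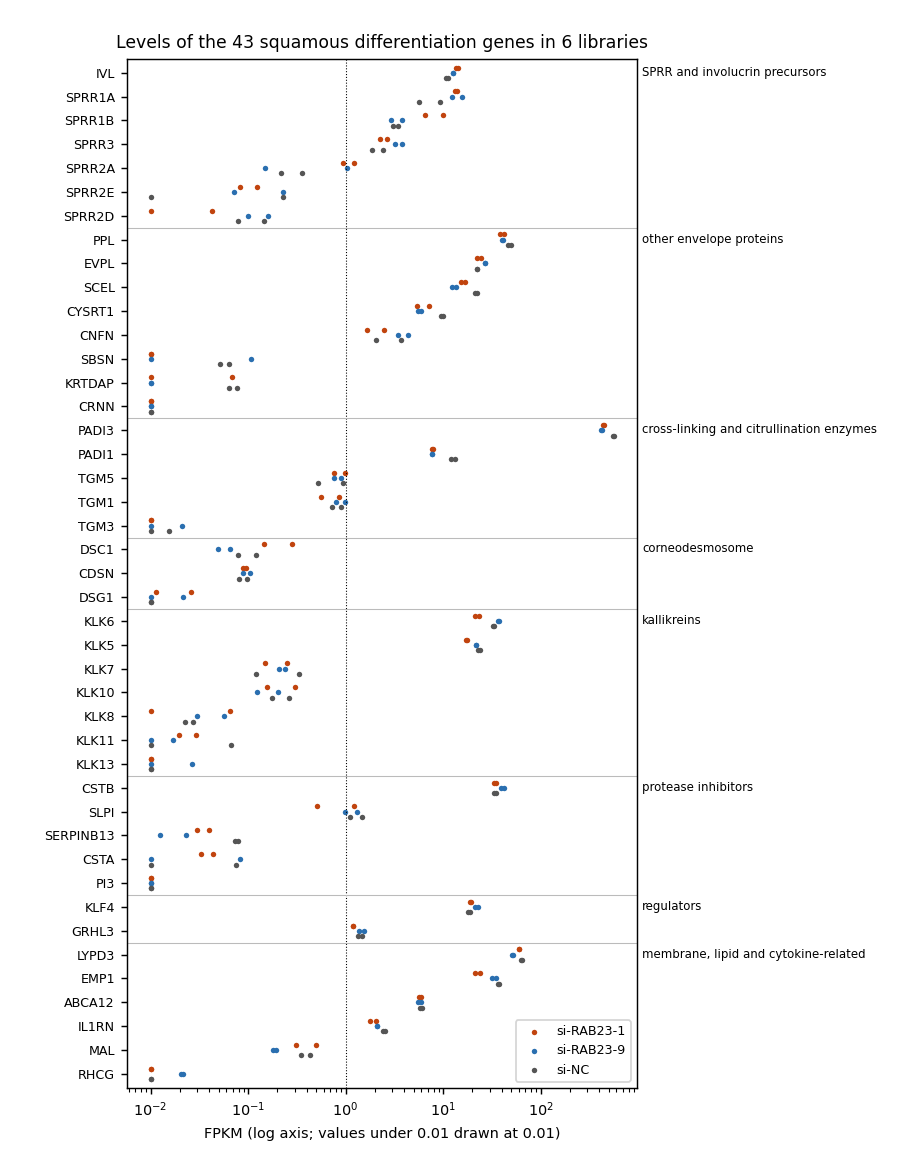
FPKM of the 43 genes in each of the 6 libraries on a log axis, grouped by role, with 1 point per library coloured by siRNA and values under 0.01 drawn at 0.01. The dotted line marks 1 FPKM: 22 genes passed the filter set there, PADI3 lies highest, and CRNN and PI3 are at 0 throughout.

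Several of the genes lie in clusters. On chromosome 1, 8 of them, IVL, CRNN and 6 SPRR genes, sit between 152409243 and 153106184 in the epidermal differentiation complex, and 5 of these were tested. PADI1 and PADI3 are neighbours on chromosome 1 between 17205126 and 17284233. All 7 kallikrein genes lie on chromosome 19 between 50943303 and 51065114, and 2 of these were tested. Coordinates are on GRCh38, as the deposited table gives them.

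With si-RAB23-1, 8 of the 22 tested genes fell, 2 rose and 12 did not pass the test. PADI1, PADI3, SCEL, CYSRT1, PPL, KLK5, KLK6 and EMP1 lay below their si-NC level, and IVL and SPRR1B lay above it. A gene was called at a limma adjusted p under 0.05 over all 14352 genes tested, of which 15.4% were called in this comparison (8.13% higher and 7.26% lower). The median log2 fold change was -0.20 over the 22 genes and 0.01 over all genes tested. Leaving out si-NC replicate 1 gave a median of -0.09, and leaving out the first or the second si-RAB23-1 library gave -0.11 or -0.12. Fewer of the 22 genes were called without either si-NC library or without si-RAB23-1 replicate 1, where fewer of all genes tested were called too. In bulk RNA, fewer cells of a type and less RNA per cell cannot be told apart.

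With si-RAB23-9, 6 genes fell, 4 rose and 12 did not pass the test. PADI1, PADI3, SCEL, CYSRT1, PPL and LYPD3 lay below their si-NC level, and SPRR3, EVPL, CSTB and KLF4 lay above it. Of all genes tested, 13.3% were called in this comparison (7.56% higher and 5.69% lower). The median log2 fold change was -0.02 over the 22 genes and 0.01 over all genes tested. Leaving out si-NC replicate 1 gave a median of -0.06, and it was 0.01 when si-NC replicate 2 or si-RAB23-9 replicate 1 was dropped. It was -0.09 with si-RAB23-9 replicate 2 left out. Without any 1 of these 4 libraries fewer of the 22 genes were called, and so were fewer of all genes tested. The comparisons with si-NC share the si-NC libraries, so a gene called in both does not give independent evidence.

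The share of genes called depends on level. Among the 7534 genes with a mean of at least 5 FPKM, fitted alone, 29.8% were called with si-RAB23-1, 27.4% with si-RAB23-9 and 37.3% between the siRNAs. There, 10 of 15 squamous differentiation genes were called with si-RAB23-1, 11 with si-RAB23-9 and 8 between the siRNAs.

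**Figure D2:**
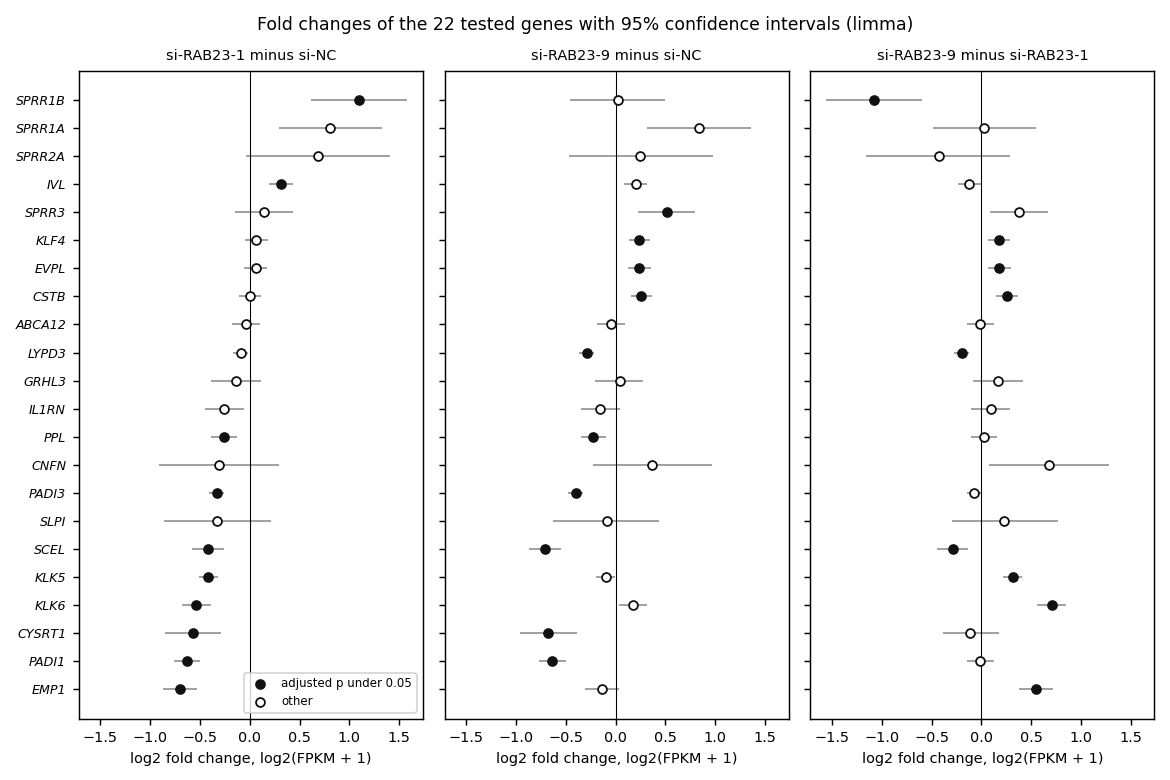
Log2 fold changes of the 22 tested genes on the log2(FPKM + 1) scale with 95% confidence intervals from limma, for each RAB23 siRNA less si-NC and for si-RAB23-9 less si-RAB23-1. Filled points passed an adjusted p under 0.05: PADI1, PADI3, SCEL, CYSRT1 and PPL are filled left of 0 in both comparisons with si-NC, and KLK6 and EMP1 lie right of 0 between the siRNAs.

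Involucrin and the SPRR genes encode the precursors that become cross-linked into the envelope, and all 5 tested ones had positive fold changes with each RAB23 siRNA. That of SPRR1B with si-RAB23-9 was 0.02. SPRR2A passed the filter only through si-RAB23-1 replicate 2 and si-RAB23-9 replicate 2 (1.21 and 1.03 FPKM), so the filter favoured its positive sign. IVL and SPRR1B passed the test with si-RAB23-1 and SPRR3 with si-RAB23-9, and SPRR1A and SPRR2A passed with neither. The windows shown are 200 bases before to 30 after the RefSeq start on GRCh38.p14, chosen because these neighbours had fold changes in 1 direction. Capitals mark the AP-1 motif TGANTCA and the TATA motif TATAAA.
IVL promoter, chr1:152908346-152908575, plus strand: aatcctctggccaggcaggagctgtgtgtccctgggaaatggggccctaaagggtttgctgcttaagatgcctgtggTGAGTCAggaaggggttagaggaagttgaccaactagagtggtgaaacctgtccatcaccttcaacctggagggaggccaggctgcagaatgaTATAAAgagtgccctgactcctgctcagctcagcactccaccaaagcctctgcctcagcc
SPRR1A promoter, chr1:152983881-152984110, plus strand: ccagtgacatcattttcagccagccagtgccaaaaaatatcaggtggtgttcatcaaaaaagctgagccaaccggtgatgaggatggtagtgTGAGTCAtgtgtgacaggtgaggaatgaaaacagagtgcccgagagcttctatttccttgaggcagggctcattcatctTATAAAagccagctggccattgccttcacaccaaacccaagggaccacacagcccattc
SPRR1B promoter, chr1:153031003-153031232, plus strand: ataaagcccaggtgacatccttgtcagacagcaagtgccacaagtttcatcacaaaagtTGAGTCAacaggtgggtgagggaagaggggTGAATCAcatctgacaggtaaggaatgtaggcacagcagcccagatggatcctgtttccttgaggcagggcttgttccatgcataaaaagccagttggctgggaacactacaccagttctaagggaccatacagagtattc
SPRR3 promoter, chr1:153001549-153001778, plus strand: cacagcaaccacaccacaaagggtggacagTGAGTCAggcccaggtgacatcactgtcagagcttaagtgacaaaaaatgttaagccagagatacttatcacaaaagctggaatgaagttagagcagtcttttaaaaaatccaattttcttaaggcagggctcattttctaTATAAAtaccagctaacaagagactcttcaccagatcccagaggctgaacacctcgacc

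AP-1 letters stood in the window of every SPRR gene shown and of IVL, and TATAAA in those of IVL, SPRR1A and SPRR3. In SPRR1B AP-1 letters occurred at 141 and 111 bases before the start, and in IVL, SPRR1A and SPRR3 at 123, 108 and 170 bases before it. The window of SPRR2A, which is not shown, held AP-1 letters 197 bases and TATAAA 30 bases before the start. Over windows from 250 bases before to 50 after the start, both strands, 13 of the 31 squamous differentiation genes in the RefSeq table held TGANTCA (41.9%), against 9.4% of 27305 genes. TATAAA was in 10 of 31 (32.3%), against 3819 of the 27305. The KLF letters CACNCCC were in 16 of 31 (51.6%), against 33.4% of genes, and the GRHL letters AACCNGTT or AACNGGTT in 2 of 31 (6.5%), against 2.1%. SPRR genes are related copies and share promoter sequence, so they are not separate cases. The 9 tested genes with AP-1 letters included IVL and 4 SPRR genes, and also SCEL, CYSRT1, EMP1 and IL1RN, whose fold changes with si-RAB23-1 were negative.

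IVL (involucrin, chr1:152908545-152911886) had 14.2 and 13.5 FPKM with si-RAB23-1 and 12.6 and 12.7 FPKM with si-RAB23-9, against 11.3 and 10.6 FPKM with si-NC. All 4 libraries of the RAB23 siRNAs lay above both si-NC libraries. The log2 fold change was 0.31 ± 0.0486 (SE) with si-RAB23-1 (limma adjusted p = 0.0144) and 0.20 ± 0.0486 with si-RAB23-9 (0.0535). The call with si-RAB23-1 was lost without si-NC replicate 1, si-NC replicate 2 or si-RAB23-1 replicate 1 (limma adjusted p = 0.0576, 0.0884 and 0.0553).

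SPRR1B had 10.0 and 6.53 FPKM with si-RAB23-1 and 3.76 and 2.91 FPKM with si-RAB23-9, against 3.04 and 3.47 FPKM with si-NC. The si-RAB23-1 libraries stood above the other 4, which overlapped. SPRR1B was 2.54-fold higher in mean FPKM with si-RAB23-1 than with si-NC (log2 fold change 1.10 ± 0.193, limma adjusted p = 0.0197) on 32 to 103 reads per library. Its fold change with si-RAB23-9 was 0.02 (limma adjusted p = 0.955). The call with si-RAB23-1 was lost without either si-NC library (0.106 and 0.0886).

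SPRR3 had 3.23 and 3.75 FPKM with si-RAB23-9 and 2.26 and 2.65 FPKM with si-RAB23-1, against 2.41 and 1.88 FPKM with si-NC. It rose with si-RAB23-9, whose libraries lay above the others (a log2 change of 0.52 ± 0.116, limma adjusted p = 0.0416). That call was lost without any 1 of the 6 libraries, with limma adjusted p values of 0.0769 and 0.173 (si-NC replicates 1 and 2), 0.0519 and 0.0526 (si-RAB23-1) and 0.104 and 0.19 (si-RAB23-9).

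SPRR1A had the largest differences on the log2(FPKM + 1) scale among the genes that passed in no comparison. It had 13.2 and 13.8 FPKM with si-RAB23-1 and 15.5 and 12.3 FPKM with si-RAB23-9, against 9.31 and 5.68 FPKM with si-NC. Both si-NC libraries lay below the other 4 but differed widely from each other (log2 changes of 0.81 and 0.84, limma adjusted p = 0.056 and 0.0557). Without si-NC replicate 1 it passed with both siRNAs (limma adjusted p = 0.0398 and 0.0391), and likewise in the voom fit on recovered reads (0.017 and 0.0124 with library totals). The values rest on 30 to 83 reads, and the deposited interval of SPRR1A holds 270 bases and not its RefSeq start. SPRR2A had 0.936 and 1.21 FPKM with si-RAB23-1 and 0.149 and 1.03 FPKM with si-RAB23-9, against 0.354 and 0.216 FPKM with si-NC. Its ratio of mean FPKM to si-NC was larger than that of SPRR1A (3.75 against 1.80 with si-RAB23-1, 2.07 against 1.85 with si-RAB23-9), and its si-RAB23-9 libraries lay on both sides of the si-NC libraries. SPRR2A rested on 2 to 19 reads per library, and reads of the SPRR2 genes, which are close copies, could have been split between them.

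Among the other envelope proteins the genes split by direction. SCEL, CYSRT1 and PPL fell with both RAB23 siRNAs, EVPL rose with si-RAB23-9, and CNFN (cornifelin) passed in no comparison, with 1.64 to 4.39 FPKM over the libraries.

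SCEL, the gene of the envelope precursor sciellin (chr13:77535674-77645263), had 16.8 and 15.3 FPKM with si-RAB23-1 and 13.5 and 12.3 FPKM with si-RAB23-9, against 22.2 and 21.3 FPKM with si-NC. The 3 groups did not overlap, and si-RAB23-9 was lowest. SCEL fell by 0.42 ± 0.0649 on the log2 scale with si-RAB23-1 (limma adjusted p = 0.0146) and by 0.71 ± 0.0649 with si-RAB23-9 (0.00426). The call with si-RAB23-9 held with any 1 library left out, and that with si-RAB23-1 was lost without either si-NC library (0.0903 and 0.0749). On the opposite strand SCEL-AS1 had at most 4 reads in a library.

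CYSRT1, which encodes a cysteine-rich protein known to bind late envelope components, had 5.44 and 7.14 FPKM with si-RAB23-1 and 6.0 and 5.47 FPKM with si-RAB23-9, against 9.49 and 10.0 FPKM with si-NC. All 4 libraries of the RAB23 siRNAs lay below both si-NC libraries. CYSRT1 fell by 0.57 ± 0.114 with si-RAB23-1 and by 0.68 ± 0.114 with si-RAB23-9 (limma adjusted p = 0.0284 and 0.0192). The call with si-RAB23-1 was lost without either si-NC library (0.11 and 0.139) or either si-RAB23-9 library (0.0563 and 0.0559). That with si-RAB23-9 was lost without either si-NC library (0.0889 and 0.11) or either si-RAB23-9 library (0.0764 and 0.111).

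Of the plakins of the scaffold, PPL fell with both siRNAs and EVPL rose with si-RAB23-9. PPL had 38.6 and 41.7 FPKM with si-RAB23-1 and 40.6 and 41.4 FPKM with si-RAB23-9, against 49.7 and 46.6 FPKM with si-NC. Both si-NC libraries lay above the other 4. PPL fell by 0.26 and 0.23 with si-RAB23-1 and si-RAB23-9 (SE 0.0521, limma adjusted p = 0.0291 and 0.0447). EVPL had 26.6 and 26.8 FPKM with si-RAB23-9 and 22.4 and 24.4 FPKM with si-RAB23-1, against 22.5 and 22.4 FPKM with si-NC. The si-RAB23-9 libraries lay above the other 4. EVPL rose by 0.24 ± 0.0472 with si-RAB23-9 (limma adjusted p = 0.0294), and its fold change with si-RAB23-1 was 0.06 (0.472).

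No plakin call held with each library left out in turn. PPL lost its call with si-RAB23-1 without si-NC replicate 1 or 2 (limma adjusted p = 0.142 and 0.084), si-RAB23-1 replicate 1 (0.0862) or si-RAB23-9 replicate 1 or 2 (0.0651 and 0.065). It lost that with si-RAB23-9 without either si-NC library (0.192 and 0.103) or either si-RAB23-9 library (0.186 and 0.162), and EVPL likewise (0.133 and 0.14, 0.131 and 0.146). With quantile normalization the adjusted p of EVPL was 0.0567. Genes overlapping EVPL on the other strand, CDK3 and TEN1-CDK3, reached at most 0.973 FPKM.

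The deiminase genes PADI3 and PADI1 fell with each RAB23 siRNA. PADI3, which modifies filament-associated proteins in hair follicle and upper epidermis (chr1:17249098-17284233), had 437.4 and 448.0 FPKM with si-RAB23-1 and 429.3 and 413.6 FPKM with si-RAB23-9, against 563.9 and 552.3 FPKM with si-NC. All 4 libraries of the RAB23 siRNAs lay below both si-NC libraries. PADI3 was 20.7% lower in mean FPKM with si-RAB23-1 (log2 change -0.33 ± 0.0309, limma adjusted p = 0.00402) and 24.5% lower with si-RAB23-9 (-0.40 ± 0.0309, 0.00301). The values rest on 23112 to 42935 reads per library. MIR3972, which overlaps PADI3 on the same strand, had at most 253 reads in a library.

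PADI1, its neighbour and an enzyme of living epidermal layers (chr1:17205126-17246005), had 7.77 and 7.81 FPKM with si-RAB23-1 and 7.76 and 7.74 FPKM with si-RAB23-9, against 13.2 and 12.0 FPKM with si-NC. The RAB23 siRNAs gave nearly the same values, 38.3% and 38.6% lower in mean FPKM than si-NC. PADI1 fell by 0.63 and 0.64 on the log2 scale (SE 0.0538, limma adjusted p = 0.0036 and 0.00392). PADI1 and PADI3 were the genes called with both siRNAs whose calls held with any 1 library left out. Between the siRNAs their fold changes were -0.01 (95% confidence interval -0.14 to 0.13) and -0.07 (-0.15 to 0.01).

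The kallikrein genes KLK5 and KLK6 fell with si-RAB23-1. KLK5 encodes the protease that starts the kallikrein cascade in skin and had 17.0 and 17.5 FPKM with si-RAB23-1 and 21.8 and 21.6 FPKM with si-RAB23-9, against 22.9 and 23.8 FPKM with si-NC. It fell by 0.42 ± 0.038 with si-RAB23-1 (limma adjusted p = 0.00398), and its fold change with si-RAB23-9 was -0.10 (0.141). KLK6, which encodes a trypsin-like protease of the same cluster, had 21.1 and 23.5 FPKM with si-RAB23-1 and 36.2 and 37.8 FPKM with si-RAB23-9, against 32.4 and 33.1 FPKM with si-NC. The si-RAB23-1 libraries of both genes lay below the other 4. KLK6 fell by 0.54 ± 0.0584 with si-RAB23-1 (limma adjusted p = 0.00581), and its fold change with si-RAB23-9 was 0.17 (0.117). The KLK6 call with si-RAB23-1 was lost without si-NC replicate 2 (0.0521), and KLK6 passed as higher with si-RAB23-9 without si-RAB23-1 replicate 1 or 2 (0.0461 each). RNAs that overlap KLK5 or KLK6 had at most 8 reads in a library.

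Of the protease inhibitors, CSTB (cystatin B, an inhibitor of lysosomal cysteine proteases) had 42.4 and 39.7 FPKM with si-RAB23-9 and 33.5 and 34.6 FPKM with si-RAB23-1, against 33.4 and 34.5 FPKM with si-NC. The si-RAB23-9 libraries lay above the other 4. CSTB rose by 0.26 ± 0.0447 with si-RAB23-9 (limma adjusted p = 0.0191), and its fold change with si-RAB23-1 was 0.00 (0.971). The call was lost without either si-NC library (0.111 and 0.0874) or either si-RAB23-9 library (0.104 and 0.0666). SLPI, a secreted inhibitor of serine proteases, rested on 5 to 17 reads per library and passed in no comparison.

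Of the regulators, KLF4, a transcription factor of the epidermal barrier, had 21.2 and 22.6 FPKM with si-RAB23-9 and 19.0 and 19.4 FPKM with si-RAB23-1, against 18.7 and 18.0 FPKM with si-NC. The si-RAB23-9 libraries lay above the other 4. KLF4 rose by 0.24 ± 0.0447 with si-RAB23-9 (limma adjusted p = 0.0236), and its fold change with si-RAB23-1 was 0.06 (0.377). The call was lost without either si-NC library (0.094 and 0.135) or either si-RAB23-9 library (0.0706 and 0.135). GRHL3, a grainyhead-like factor of the same barrier programme, had 1.18 to 1.56 FPKM and passed in no comparison.

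Among the membrane, lipid and cytokine-related genes, EMP1 and LYPD3 each fell with 1 siRNA. EMP1, which encodes epithelial membrane protein 1 (chr12:13196716-13219939), had 23.9 and 21.2 FPKM with si-RAB23-1 and 34.9 and 32.1 FPKM with si-RAB23-9, against 37.8 and 36.4 FPKM with si-NC. The si-RAB23-1 libraries lay far below the other 4. EMP1 was 39.2% lower in mean FPKM with si-RAB23-1 than with si-NC (log2 fold change -0.70 ± 0.0685, limma adjusted p = 0.0047), and its fold change with si-RAB23-9 was -0.14 (0.23). In the voom fit on recovered reads it passed as lower with si-RAB23-9 too (0.0196 with library totals).

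LYPD3 had 50.9 and 52.3 FPKM with si-RAB23-9 and 59.5 and 59.5 FPKM with si-RAB23-1, against 63.8 and 63.1 FPKM with si-NC. The groups did not overlap. LYPD3 fell by 0.29 ± 0.0308 with si-RAB23-9 (limma adjusted p = 0.00611), and its fold change with si-RAB23-1 was -0.09 (0.107). The call was lost without either si-NC library (0.0544 and 0.0552) or either si-RAB23-9 library (0.0556 and 0.0524). With si-RAB23-1 it passed as lower under quantile normalization (0.0365). ABCA12, a lipid transporter of the barrier, had 5.48 to 6.11 FPKM over the libraries, and IL1RN, the interleukin-1 receptor antagonist, 1.78 to 2.55 FPKM. Neither passed in a comparison.

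**Figure D3:**
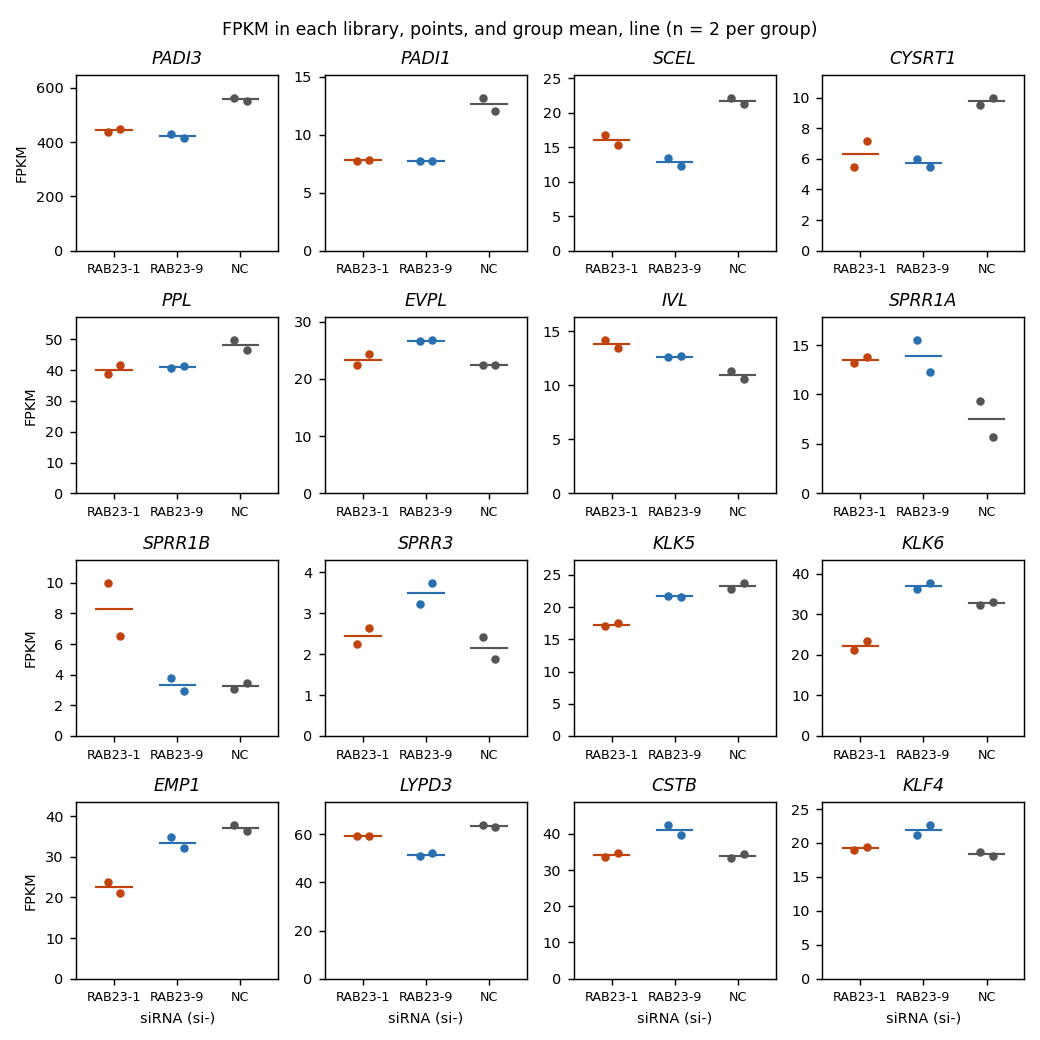
FPKM of the 15 genes called in at least 1 comparison and of SPRR1A in each library, as points, with the group mean as a line (n = 2 per group), for si-RAB23-1, si-RAB23-9 and si-NC. Axes start at 0: PADI1 and PADI3 are lower with both RAB23 siRNAs, whereas KLK6 and EMP1 are lowest with si-RAB23-1 and LYPD3 with si-RAB23-9.

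Set directly against each other, the RAB23 siRNAs differed for 9 of the 22 genes, of which 6 were higher and 3 lower under si-RAB23-9. Of all genes tested, 21.0% were called in this comparison (11.1% higher and 9.89% lower). KLK6 was 1.66-fold and EMP1 1.49-fold higher in mean FPKM with si-RAB23-9 (log2 changes of 0.71 and 0.55, limma adjusted p = 0.00226 and 0.00652), and KLK5 was 1.26-fold higher (0.32, 0.0061). The calls of these 3 genes held with any 1 library left out. Fewer of the 22 genes were called without si-RAB23-1 replicate 1 or either si-RAB23-9 library, where fewer of all genes tested were called too.

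CSTB (0.26, limma adjusted p = 0.0154), EVPL (0.18, 0.0453) and KLF4 (0.18, 0.0417) were also higher with si-RAB23-9 than with si-RAB23-1. SPRR1B (-1.08, limma adjusted p = 0.0174), SCEL (-0.29, 0.0307) and LYPD3 (-0.20, 0.0113) were lower. CSTB lost the call without si-RAB23-1 replicate 1 (0.0631) or si-RAB23-9 replicate 1 (0.0822), and SPRR1B and LYPD3 without si-RAB23-9 replicate 1 or 2 (0.0553 and 0.0912, 0.0814 and 0.0631). EVPL kept it without si-RAB23-1 replicate 2 alone, with p values up to 0.183 otherwise. SCEL also kept it without si-RAB23-1 replicate 2 alone (up to 0.146), and KLF4 lost it without any 1 library (0.074 to 0.203). IVL, SPRR3, CYSRT1, PPL, PADI1 and PADI3, which passed with at least 1 siRNA against si-NC, did not pass between the siRNAs. The widest of their 95% intervals were those of SPRR3 (0.09 to 0.67, limma adjusted p = 0.0723) and CYSRT1 (-0.39 to 0.18, 0.55).

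EMP1 and SCEL carry the letters GACATAT in an annotated 3′ UTR. This 7-mer was singled out in an earlier analysis of these libraries, and of its 928 carriers among 10913 tested genes with a 3′ UTR, 25.6% passed as lower with si-RAB23-1, compared with 7.11% of genes lacking it. With si-RAB23-9 the shares were 9.7% and 6.36%. As GACATAT was singled out in these same libraries, its shares are not independent evidence. It stood in 2 of the 21 squamous differentiation genes scanned, against 8.5% of all 10913 genes. The longest annotated 3′ UTR held 5248 bases in EMP1 and 989 in SCEL. AAGTTAA, carried by 18.6% of all genes scanned, stood in none of the 21. Of its 2025 carriers 17.3% were called lower with si-RAB23-9, against 4.21% of the others. TCGGAGA, also taken from that earlier analysis and carried by 2.59% of all genes scanned, stood in none of them either. Of its 283 carriers 6.71% were lower with si-RAB23-1, against 8.74% of the others, and 3.18% against 6.74% with si-RAB23-9. The sites are shown with GACATAT in capitals because EMP1 fell with si-RAB23-1 and differed between the siRNAs, while SCEL fell with both. The part of these letters in either change was not tested.
EMP1 3′ UTR site, transcript ENST00000256951.9: cttacatttcaGACATATccaaagggaat
SCEL 3′ UTR site, transcript ENST00000535157.5: gaactaggtagGACATATaaacaatttaa

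The promoters of EMP1 and SCEL are shown for comparison with those of the SPRR genes, with the same windows and build. Capitals mark AP-1 and, in EMP1, CACNCCC.
EMP1 promoter, chr12:13196526-13196755, plus strand: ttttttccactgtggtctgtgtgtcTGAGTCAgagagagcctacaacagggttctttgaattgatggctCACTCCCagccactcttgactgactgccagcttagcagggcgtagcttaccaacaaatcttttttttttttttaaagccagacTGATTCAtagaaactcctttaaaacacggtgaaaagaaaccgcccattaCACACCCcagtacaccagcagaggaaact
SCEL promoter, chr13:77535506-77535735, plus strand: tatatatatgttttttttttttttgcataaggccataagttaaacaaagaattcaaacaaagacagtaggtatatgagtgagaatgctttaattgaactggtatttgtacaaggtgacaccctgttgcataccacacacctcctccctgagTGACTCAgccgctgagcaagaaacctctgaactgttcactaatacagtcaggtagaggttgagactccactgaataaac

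SCEL held 1 AP-1 match, 49 bases before the start, and EMP1 held 2, at 175 and 48 bases before it. Neither window held TATAAA.

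The wider squamous programme was read from 122 further genes grouped by role, of which 48 were tested. With si-RAB23-1, 13 of the 48 fell and 9 rose, with a median log2 fold change of -0.09. With si-RAB23-9, 4 fell and 3 rose, with a median of -0.06. Of all genes tested, 15.4% and 13.3% were called in these comparisons. Of the 27 other envelope genes 4 were tested.

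ANXA1, an annexin of the envelope, rose by 0.66 with si-RAB23-1 (150.5 FPKM against 94.7 with si-NC, limma adjusted p = 0.00295). ECM1 fell by 0.37 (0.0481). Of 3 further cross-linking and citrullination genes, PADI2 was tested and fell by 0.67 with si-RAB23-1 (3.56 FPKM against 6.22, limma adjusted p = 0.00573), where its fold change with si-RAB23-9 was 0.03 (0.819). In all, PADI1, PADI2 and PADI3 fell with si-RAB23-1, and PADI1 and PADI3 with si-RAB23-9. Of all genes tested, 7.26% and 5.69% were lower in these comparisons. PADI4 stayed under 1 FPKM and was not tested.

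Of 8 lipid barrier genes tested, 3 fell with si-RAB23-1 and 2 with si-RAB23-9, where 7.26% and 5.69% of all genes tested were lower. SULT2B1, a cholesterol sulfotransferase, fell with both siRNAs (-0.65 and -0.45 with si-RAB23-1 and si-RAB23-9, limma adjusted p = 0.00363 and 0.0093). SMPD1, the gene of acid sphingomyelinase, did so too (-0.46 and -0.51, 0.0148 and 0.0117). Of 7 other protease genes tested, 2 fell with si-RAB23-1, and CTSV fell most (-0.25, limma adjusted p = 0.0275). TMPRSS11E alone fell with si-RAB23-9 (-0.63, 0.0363). Of 5 other inhibitor genes tested, 2 rose with si-RAB23-1, where 8.13% of all genes tested were higher, and SERPINB5 rose most (0.33, 0.0263).

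Of 11 regulators of squamous differentiation tested, 4 rose and 4 fell with si-RAB23-1, and 1 rose and 1 fell with si-RAB23-9, where 15.4% and 13.3% of all genes tested were called. TP63, the gene of the basal cell factor p63, was at 19.4 FPKM with si-RAB23-1 and 11.7 with si-RAB23-9, against 14.4 with si-NC. It rose with si-RAB23-1, whereas with si-RAB23-9 it fell (0.40 and -0.28, limma adjusted p = 0.00574 and 0.0156), and the siRNAs differed by -0.68 (0.00142). CEBPA fell with si-RAB23-1 (-0.42, 0.00997), and GATA3 rose with si-RAB23-9 (0.23, 0.0312). Beside TP63, 5 of the 8 squamous markers were tested. With si-RAB23-1, KRT6A, DSG3 and SOX2 rose (1.04, 0.91 and 0.70, limma adjusted p = 0.00295, 0.00211 and 0.00616), while KRT14 and SFN did not pass (0.38 and -0.02, 0.0824 and 0.781). With si-RAB23-9, SOX2 and KRT6A rose (0.73 and 0.35, limma adjusted p = 0.00618 and 0.0388), SFN fell (-0.19, 0.032), and KRT14 and DSG3 did not pass (0.35 and 0.02, 0.101 and 0.835). Calls of these 5 markers were not checked with a library left out.

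Among 9 surface and late squamous genes tested, GSDMC rose (0.44, limma adjusted p = 0.0187) and PSCA fell (-0.57, 0.0387) with si-RAB23-1. With si-RAB23-9, 2 of the 9 rose, and CEACAM6 rose most (0.42, 0.0438). Of the interleukin-1 family, IL18 rose (0.40, 0.045) and IL36RN fell (-0.63, 0.0134) with si-RAB23-1. With any 1 library left out, ANXA1 and SULT2B1 kept their calls with si-RAB23-1. TP63 and PADI2 lost those with si-RAB23-1 without si-NC replicate 1 alone (0.0517 and 0.0502), and the other calls against si-NC named among the 48 genes were lost without each si-NC library, with limma adjusted p values of 0.0578 to 0.2. Some of these were also lost without a library of a RAB23 siRNA.

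Between the siRNAs, 8 of the 48 genes were higher and 10 lower under si-RAB23-9, where 21.0% of all genes tested were called (11.1% higher and 9.89% lower). PADI2 (0.70, limma adjusted p = 0.00382), CEBPA (0.58, 0.00343), IL36RN (0.47, 0.0239) and ST14 (0.28, 0.0319), the gene of the protease matriptase, were higher. TMPRSS11E (-0.81, limma adjusted p = 0.0141), ANXA1 (-0.60, 0.00223), IL18 (-0.54, 0.0168), ALOX12 (-0.46, 0.0117), SPINK5 (-0.45, 0.0137) and GSDMC (-0.43, 0.0165) were lower. The calls of PADI2, CEBPA, ANXA1 and TP63 held with any 1 library left out, and those of the other 7 genes were lost without si-RAB23-9 replicate 1 (limma adjusted p = 0.064 to 0.116).

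**Figure D4:**
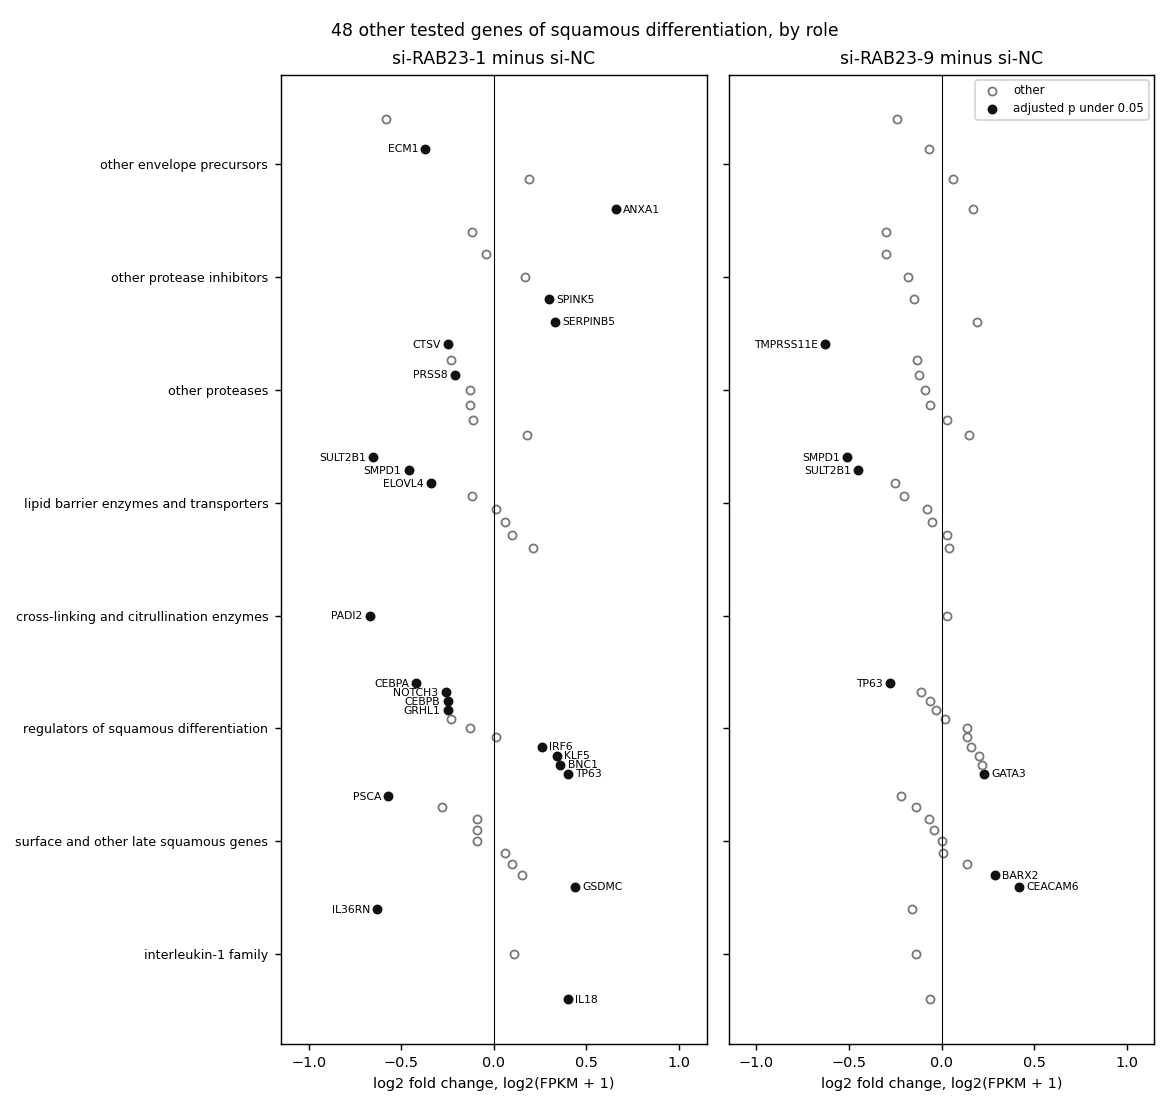
Log2 fold changes of the 48 other tested genes of squamous differentiation by role, on the log2(FPKM + 1) scale, for each RAB23 siRNA less si-NC. Filled and named points passed a limma adjusted p under 0.05, 22 with si-RAB23-1 and 7 with si-RAB23-9: SULT2B1 and SMPD1 lie left of 0 in both panels, and TP63 lies on opposite sides.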

How the data were processed

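RNA sequencing had measured 6 libraries of KYSE30 cells in 3 groups of 2. The authors deposited 1 table of FPKM per gene and library. Per the submitters' processing notes, which state no roles, the tools were STAR 2.5.1b, Trimmomatic 0.36, edgeR 3.8.5, RSEM 1.2.29 and FastQC, with hg19 as the build. Gene coordinates, 58735 in number, nevertheless equal GENCODE release 29 on GRCh38. Multiplied by gene length, 100% of the FPKM values were whole multiples of 1 read within 0.01 of a read, and the reads so recovered gave the depths. Intervals from reads were not computed, and strandedness is not given in the sources used here.

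Genes reaching 1 FPKM in 2 or more libraries (14352) were tested on log2(FPKM + 1) with limma 3.58.1 in R 4.3.3, with 1 mean per group over all 6 libraries, eBayes with a trend and Benjamini-Hochberg adjustment over all genes tested. Fold changes on this scale understate those of low genes. Every p printed is two-sided. The script was tested on simulated data. The alternatives were a pseudocount of 0.1, no filter, a mean FPKM of at least 5, median-of-ratios scaling, quantile normalization, a replicate block, voom on those reads (library totals or median-of-ratios sizes), and leaving out each library.

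The genes and lists were chosen with earlier results of these data known. Values in every library were given for genes called in a comparison, for the 3 of highest mean FPKM and for the uncalled gene of largest difference on the log2(FPKM + 1) scale, and SPRR2A was added after its values were seen. Of the other squamous genes, the called gene of largest fold change per role, direction and comparison was named, and the tested squamous markers were added. Promoters came from RefSeq on GRCh38.p14, where 31 of 43 genes had a window, and 3′ UTRs from GENCODE 29.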

Additional observations from a re-analysis of the deposited data

Results flagged for a closer look

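For 9 of the 22 tested genes, the effect of si-RAB23-9 and the effect of si-RAB23-1, each against si-NC, differed by the limma test of the difference between the siRNAs. Of all genes tested 21.0% were called in this comparison, and 37.3% of those with a mean of at least 5 FPKM, fitted alone. On the log2(FPKM + 1) scale, si-RAB23-9 minus si-RAB23-1 came to 0.71 for KLK6, 0.55 for EMP1, 0.32 for KLK5, 0.26 for CSTB, 0.18 for EVPL and 0.18 for KLF4. It came to -0.20 for LYPD3, -0.29 for SCEL and -1.08 for SPRR1B. Against si-NC, the changes with si-RAB23-9 and si-RAB23-1 were 0.17 and -0.54 for KLK6, -0.14 and -0.70 for EMP1, and -0.10 and -0.42 for KLK5. For SCEL both siRNAs lowered the level, and the fall with si-RAB23-9 was the larger one.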

How the results depend on the processing

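Counts of called genes depended on the settings more than directions did. Among the 22 genes and 3 comparisons, no called gene changed sign under any of the 8 alternatives or with a library left out. Without a filter, fewer genes were called: with si-RAB23-1 1 higher and 5 lower, with si-RAB23-9 0 higher (7 at an unadjusted p under 0.05 in limma), and between the siRNAs 1 lower, where 35196 genes share the adjustment. Of those genes 2.98%, 2.79% and 4.14% were called in these comparisons. On recovered reads 4 genes were higher with si-RAB23-1 under either library size in voom, as SPRR1A and SPRR2A joined IVL and SPRR1B. These fits called more genes in general, 26.5% and 26.4% of all genes tested with si-RAB23-1, against 15.4% in the main fit. The median log2 fold change with si-RAB23-1 was -0.24 with a pseudocount of 0.1, -0.26 for genes averaging 5 FPKM or more, and -0.28 and -0.26 on recovered reads with library totals and median-of-ratios sizes. Between the siRNAs it was 0.09, 0.03, 0.12 and 0.10 under these settings, and with si-RAB23-9 it was -0.10 for genes averaging 5 FPKM or more. The cause was not tested. With 1 library left out, a group rests on a lone library that is assumed to vary like the others. The counts then ranged from 0 to 2 higher and 4 to 8 lower with si-RAB23-1, 0 to 4 higher and 3 to 6 lower with si-RAB23-9, and 3 to 5 higher and 0 to 3 lower between the siRNAs. Where a count was 0, limma had 3 to 8 genes in that direction at an unadjusted p under 0.05. The medians ranged from -0.20 to -0.09, from -0.09 to 0.01 and from 0.01 to 0.11. Over all genes the share called fell likewise, to 2.36% with si-RAB23-1 without si-NC replicate 2 and to 1.80% with si-RAB23-9 without si-RAB23-9 replicate 2. With the replicate number as a block, 3 genes passed as higher and 7 as lower under si-RAB23-1, 4 higher and 5 lower with si-RAB23-9, and 4 higher and 3 lower between the siRNAs. Of all genes tested, 11.5%, 10.0% and 16.9% were called in these comparisons with the block. The labels do not say that numbers pair the libraries, and deviations of same-numbered libraries correlated at -0.056, -0.016 and 0.061. Depth limits the SPRR genes, SLPI and the genes under 10 reads most.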
